A study of Mus musculus with 12 samples.

Results

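The guanylate-binding proteins (GBPs) are a family of large GTPases that cells make in quantity after exposure to interferon gamma. In mouse they coat the membranes of vacuoles that hold bacteria or parasites, help to open them, and act together with the inflammasome, and their transcripts are widely read as a sign of interferon gamma signalling in inflamed tissue and tumors. In the mouse genome the genes lie in a pair of clusters, on chromosomes 3 and 5. The members described here are the 10 rows of the gene count matrix whose Ensembl identifiers map to Gbp2, Gbp2b, Gbp3, Gbp4, Gbp5, Gbp6, Gbp7, Gbp8, Gbp9 and Gbp10, out of 55401 genes in the matrix. All 10 passed the filter on low counts, which left 20818 genes for testing.

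The data are poly(A) RNA-seq libraries of 12 mouse tumors, 3 per group, collected at day 21. Mice were first fed a purified diet low in arsenic, with Milli-Q water, and each then received 125000 TC2Ras cells, a mouse prostate cancer cell line, under the skin of both flanks, and the left and right tumors of each mouse were combined into 1 sample. In the Control group the TC2Ras cells were injected alone and the drinking water held 0 ppb inorganic arsenic (iAs). The As300 group had TC2Ras cells alone and 300 ppb iAs. In the ASC group the TC2Ras cells were mixed with 1% ASC-GFP cells, primary adipose-derived stromal cells of transgenic mice that express GFP from the ubiquitin C promoter, with 0 ppb iAs. The ASC_As300 group had both the 1% ASC-GFP admixture and 300 ppb iAs. Host strain, sex and age are not given in the sources used here, and the cells of the host immune system are part of every sample. The labels give the cell type as adipose-derived stromal cells, whereas the protocols describe whole tumors. The 6 stromal markers summed to between 3611 and 6050 CPM, counts scaled to a common library size, across the tumors, and the 7 macrophage markers to between 778 and 1641 CPM.

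The libraries held 39157647 to 55168642 counts. The first Control tumor (Control 1) stood apart from the others on the first principal component, and its B cell markers summed to 150.2 CPM, against 3.61 and 4.73 CPM in the other Control tumors. Skeletal muscle markers ranged from 0.889 to 1390 CPM across tumors of all groups. Fold changes in As300 against Control, and the number of members called in ASC against Control, are also given without Control 1. Other values include it unless a tumor is said to be left out.

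Taken from the GENCODE M21 annotation of GRCm38, the chromosome 3 cluster held Gbp5, Gbp7, Gbp3, Gbp2b and Gbp2 on the plus strand, from the start of Gbp5 at 142493978 to the end of Gbp2 at 142638008. The chromosome 5 cluster held Gbp8, Gbp9, Gbp4, Gbp10 and Gbp6 on the minus strand, from 105014150 to 105293698. The build used for the deposited counts is not given in the sources used here. RefSeq promoter windows on GRCm38.p6 matched 5 of the 10 members, all in the chromosome 3 cluster. Interferon-activated factors bind a pair of well-known DNA elements, the interferon-stimulated response element (ISRE) and the gamma-activated site (GAS). Each of these members had an ISRE match, searched as 2 GAAA repeats with any 2 bases between them on either strand, in the 250 bases before its start. Over all 27025 genes of the promoter table, 3.46% held such a match. The stretches around the matches are shown because these genes carried most of the family's transcripts. They read 5′ to 3′ on GRCm38.p6, with ISRE and GAS matches in capitals.
Gbp5, chr3:142496729-142496818, plus strand: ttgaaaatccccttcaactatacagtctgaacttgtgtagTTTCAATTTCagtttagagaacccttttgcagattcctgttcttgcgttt
Gbp7, chr3:142530243-142530332, plus strand: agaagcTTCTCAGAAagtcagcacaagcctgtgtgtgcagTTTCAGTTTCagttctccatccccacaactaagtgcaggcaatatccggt
Gbp3, chr3:142559959-142560043, plus strand: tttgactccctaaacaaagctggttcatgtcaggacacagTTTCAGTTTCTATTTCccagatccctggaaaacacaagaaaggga
Gbp2b, chr3:142594670-142594759, plus strand: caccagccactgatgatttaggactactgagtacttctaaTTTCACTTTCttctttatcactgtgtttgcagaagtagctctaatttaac
Gbp2, chr3:142620564-142620653, plus strand: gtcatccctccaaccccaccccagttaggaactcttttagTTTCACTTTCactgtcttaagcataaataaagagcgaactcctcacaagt

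The ISRE match began 59 bases before the start of Gbp2, 53 bases before that of Gbp7 and 45 bases before that of Gbp3, where a second match overlapped the first. It lay farther out in Gbp2b, at 137 bases, and in Gbp5, at 165 bases. These distances are to the RefSeq start, which for Gbp5 lies downstream of the GENCODE start given above. The RefSeq starts of Gbp2 and Gbp3 also lie downstream of their GENCODE starts, at 142620602 and 142560026. The GENCODE start of Gbp2 falls just before its ISRE match. GAS matches, searched as TTCNNNGAA, a pattern that reads the same on both strands, numbered 2 each in the windows of Gbp5 and Gbp7 and 0 in those of Gbp2, Gbp2b and Gbp3, against 8.13% of all genes with at least 1. The GAS matches of Gbp5 and 1 of those of Gbp7 lie outside the stretch shown. A second annotated start of Gbp3 had neither element in its window. These matches are letters in a window and were not measured as binding.

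The members resemble each other in sequence, which limits how well reads can be assigned. Over the longest coding sequence of each gene, Gbp6 and Gbp10 were 98.4% identical, and Gbp4 and Gbp8 91.9%. Of all 100-base words in the annotated transcripts of Gbp10, 73.5% also occurred in transcripts of another gene, and for Gbp6 the share was 64.5%. The corresponding share was 0% for Gbp2 and Gbp2b, 0.694% for Gbp3, 0.142% for Gbp5 and 10% for Gbp7. The gene that shared most was not always a member. For Gbp10 and Gbp6 it was Gm43302, with 2399 of 2774 and 3684 of 4028 shared words. For Gbp7 it was Gm43802, with 538 of 562. On chromosome 5, the gene models of Gbp8 and Gbp9 reached to 105139540 and 105139539 and so ran across nearly all of Gbp4, which spans 105115767 to 105139586, on the same strand. Counts of Gbp6 and Gbp10, and the split among Gbp4, Gbp8 and Gbp9, are therefore uncertain.

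**Figure D1:**
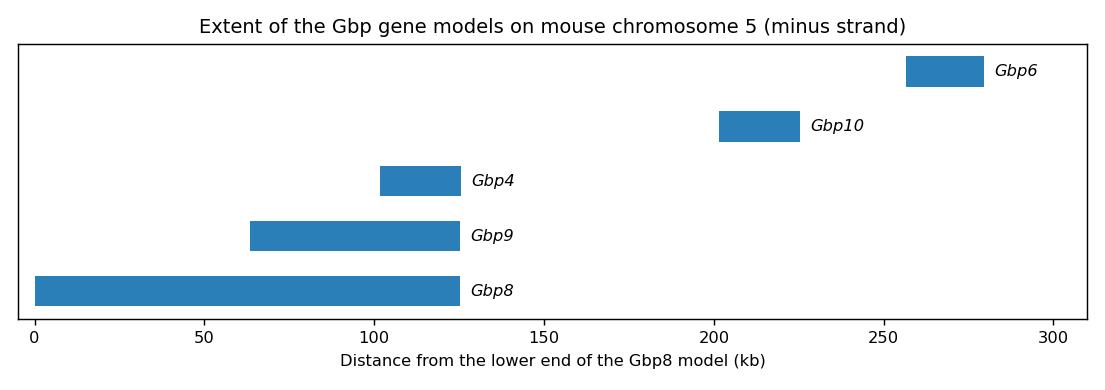
Horizontal bars give the extent of each Gbp gene model on chromosome 5, in kilobases from the lower end of the Gbp8 model, all on the minus strand. The models of Gbp8, Gbp9 and Gbp4 end at nearly the same position and overlap, whereas Gbp10 and Gbp6 stand apart.

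The family was several-fold more abundant in tumors that had received ASC-GFP cells. Summed over the 10 members, the level was 108.9 CPM ± 34.3 (SD, n = 3) in Control tumors, 74.1 ± 20.2 in As300 tumors, 640.7 ± 107.5 in ASC tumors and 711.7 ± 66.0 in ASC_As300 tumors. The highest tumor without ASC, Control 1, reached 144.8 CPM, and the lowest with ASC reached 532.8 CPM. In these bulk samples, a change in the number of cells that express a gene and a change in RNA per cell cannot be told apart.

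**Figure D2:**
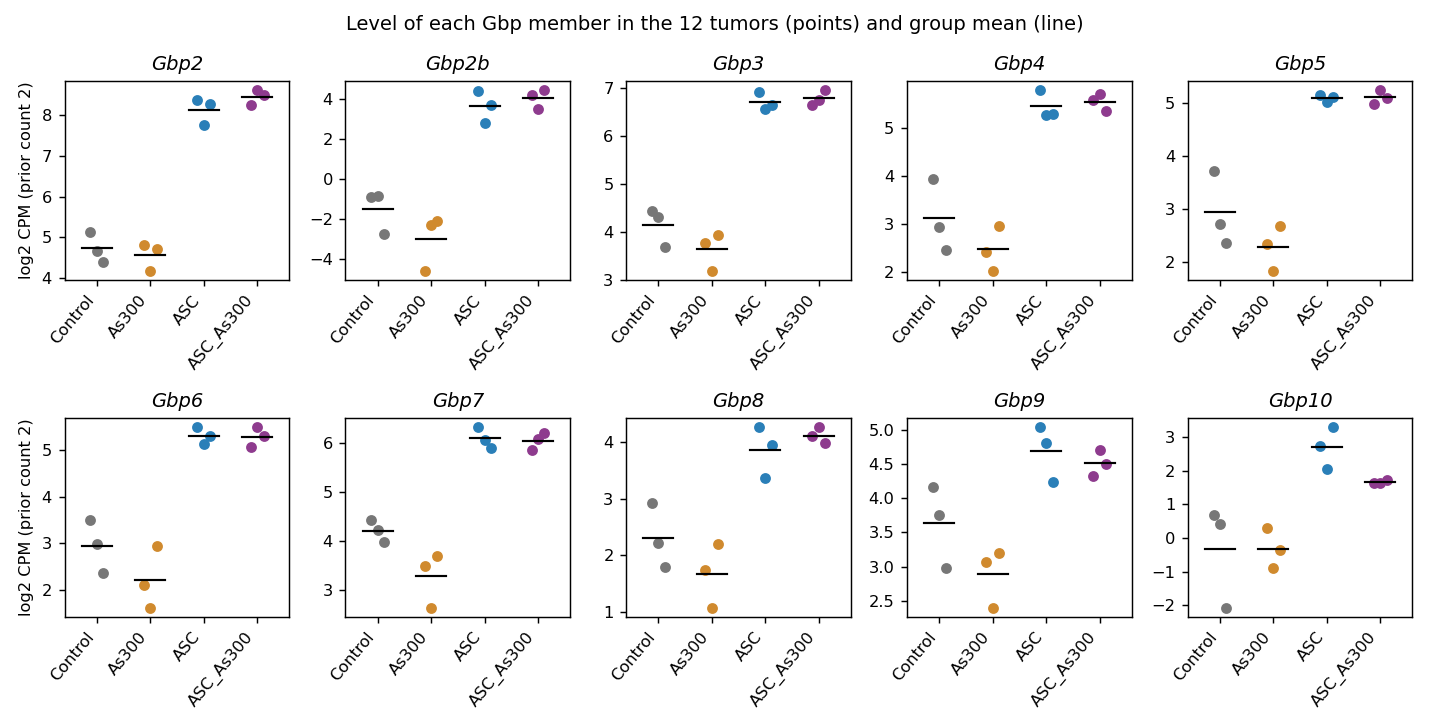
Each panel plots 1 member, with log2 CPM on the vertical axis (prior count of 2), 1 point per tumor in 4 groups and a line at the group mean. For all 10 members, every ASC and ASC_As300 tumor lies above every Control and As300 tumor.

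Gbp2, a member that is anchored to membranes by a lipid tail and helps restrict Toxoplasma in mouse cells, dominated the family. Its level in the Control tumors was 34.6, 25.4 and 20.8 CPM and in the As300 tumors 27.8, 17.9 and 26.2 CPM. In the ASC tumors it was 331.3, 216.9 and 313 CPM, and in the ASC_As300 tumors 307.9, 394.6 and 360 CPM. The lowest tumor with ASC was thus several times the highest without. Gbp2 rose 10.7-fold in ASC against Control (log2 fold change 3.41 ± 0.23 SE, adjusted p = 4.22e-05) and 14.8-fold in ASC_As300 against As300 (3.89 ± 0.24, adjusted p = 1.38e-05). It ranked first of 20818 genes by p in each of these comparisons and in ASC_As300 against Control, in which it rose 13.2-fold (adjusted p = 2.7e-05).

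Gbp2b, the neighbour of Gbp2 and the gene long called Gbp1 in mouse, was close to absent without ASC. Its raw counts were 24, 27 and 5 in the Control tumors and 0, 8 and 11 in the As300 tumors, against 1051, 260 and 554 in the ASC tumors and 1002, 577 and 1109 in the ASC_As300 tumors. No tumor without ASC came near the lowest tumor with it. Gbp2b rose 36.2-fold in ASC against Control (log2 fold change 5.18 ± 0.66 SE, adjusted p = 0.00182). All 3 As300 tumors lay at or under a floor of 12 counts per library, so the ASC_As300 level was at least 68.6-fold higher than that of As300. In the test of ASC_As300 against As300 the adjusted p was 0.000428, and the fitted fold change there depends on the prior count.

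Gbp3, the next most abundant member, lay between 9.02 and 21.6 CPM in the 6 tumors without ASC. In the ASC tumors it was 120.6, 94.6 and 99.8 CPM, and in the ASC_As300 tumors 100, 106.5 and 123.7 CPM. It rose 5.83-fold in ASC against Control (log2 2.54 ± 0.22 SE, adjusted p = 0.000167) and 8.72-fold in ASC_As300 against As300 (3.12 ± 0.22, adjusted p = 3.51e-05). Gbp5, which is known to promote activation of the NLRP3 inflammasome, was the steadiest member among tumors with ASC, at 32.4 to 35.4 CPM in ASC and 31.4 to 37.7 CPM in ASC_As300. Without ASC it lay between 3.54 and 13.2 CPM. It rose 4.1-fold and 6.89-fold in the same comparisons (adjusted p = 0.00492 and 0.000596).

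Gbp7, also of the chromosome 3 cluster, was measured at 21.3, 18.5 and 15.6 CPM in Control tumors and at 11.1, 6.15 and 12.9 CPM in As300 tumors. Its levels with ASC were 79.9, 66.1 and 58.8 CPM, and with ASC and iAs together 57.8, 67.4 and 73.1 CPM. The 4 groups formed 3 tiers, with As300 under Control and both ASC groups above. Gbp7 was not called in As300 against Control (adjusted p = 0.0538 in edgeR), and 29.9% of all genes tested did not overlap there. Gbp7 rose 3.7-fold in ASC against Control (log2 1.89 ± 0.23 SE, adjusted p = 0.0012) and 6.57-fold in ASC_As300 against As300 (2.72 ± 0.23, adjusted p = 8.61e-05).

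On chromosome 5, Gbp4 and Gbp6 passed the test in all 3 comparisons of a group with ASC and one without. Gbp4 lay at 4.03 to 15.4 CPM without ASC and 38.8 to 55.3 CPM with it, and Gbp6 at 3.03 to 11.2 and 33.7 to 45.2 CPM. Gbp4 rose 4.68-fold in ASC against Control and 8.2-fold in ASC_As300 against As300 (adjusted p = 0.00658 and 0.000777). With only the 6 tumors compared in the fit, the adjusted p of Gbp4 in ASC against Control was 0.052. Gbp6 rose 4.92-fold and 7.88-fold (adjusted p = 0.00364 and 0.000631).

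Gbp8, Gbp9 and Gbp10 gave smaller or more variable differences. Gbp8 was measured at 7.59, 4.59 and 3.41 CPM in Control, 3.3, 2.07 and 4.54 in As300, 19.2, 10.2 and 15.4 in ASC and 17.2, 19.1 and 15.7 in ASC_As300. Its 2.88-fold difference in ASC against Control missed the threshold in edgeR (adjusted p = 0.0602) and passed in DESeq2 (adjusted p = 9.91e-05) and in edgeR with at least 10 counts in every tumor (0.0382) or counts divided by 4 (0.0406). In edgeR it rose 3.34-fold in ASC_As300 against Control (adjusted p = 0.0289) and 5.24-fold in ASC_As300 against As300 (adjusted p = 0.00364). Gbp8's call against Control was lost when any of Control 2, Control 3 or an ASC_As300 tumor was left out.

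Gbp9 had the smallest fold change of the family in all 3 comparisons of a group with ASC and one without. Its levels were 17.9, 13.5 and 7.85 CPM in Control, 8.33, 5.23 and 9.13 in As300, 33, 27.9 and 18.8 in ASC, and 20, 25.9 and 22.7 in ASC_As300. Every tumor with ASC lay above every tumor without it, although Control 1, at 17.9 CPM, came close to the third ASC tumor, and the As300 and Control tumors overlapped. The difference was 2.03-fold in ASC against Control (adjusted p = 0.151) and 1.75-fold in ASC_As300 against Control (adjusted p = 0.232), and Gbp9 rose 3.02-fold in ASC_As300 against As300 (adjusted p = 0.0254). That call was lost when any As300 or ASC_As300 tumor was left out, with a highest adjusted p of 0.133.

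Gbp10 was the least abundant member in tumors with ASC, with raw counts of 75, 67 and 9 in Control, 47, 24 and 42 in As300, 325, 155 and 425 in ASC and 165, 154 and 167 in ASC_As300. Its difference was 6.78-fold in ASC against Control, 3.1-fold in ASC_As300 against Control and 3.92-fold in ASC_As300 against As300. None passed in the main edgeR fit (adjusted p = 0.056, 0.215 and 0.216). DESeq2 called all 3 (adjusted p = 1.33e-05, 0.0379 and 0.0149). In ASC against Control, edgeR called Gbp10 with counts divided by 4 (adjusted p = 0.024). It also did so without Control 1, Control 3 or ASC 1 (0.0475, 0.046 and 0.0471). In ASC_As300 against As300, edgeR called Gbp10 with the 6 tumors alone (0.037) and without Control 3 (0.0311). Gbp10 stayed uncalled in 13 of 18 and 15 of 18 alternatives of these 2 comparisons. The Gbp6 and Gbp10 values carry the doubt from shared sequence given above. When the counts of Gbp4, Gbp8 and Gbp9, whose models overlap, were summed into 1 feature, that feature rose 3.1-fold in ASC against Control (adjusted p = 0.0201) and 5.25-fold in ASC_As300 against As300 (adjusted p = 0.00139).

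A gene was called when its adjusted p was under 0.05 and its change at least 1.5-fold. In ASC against Control, 7 of 10 members were called higher, beside 0.706% of all genes tested, and the median log2 fold change of the members was 2.26 beside -0.0044 over all genes. In ASC_As300 against Control, 8 of 10 were called higher beside 0.783% of all genes, with a median of 2.17. In ASC_As300 against As300, 9 of 10 were called higher beside 0.793% of all genes, with a median of 2.88. No member was called lower in any of them. For all 10 members, every tumor of the higher group lay above every tumor of the lower group in these 3 comparisons. Over all genes tested, 19%, 25.6% and 19.7% separated in this way in either direction. The comparisons share tumors and are not independent of each other. Without Control 1, 9 of 10 members were called in ASC against Control. Over all genes, the number called there ran from 105 to 355 when 1 tumor was left out.

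**Figure D3:**
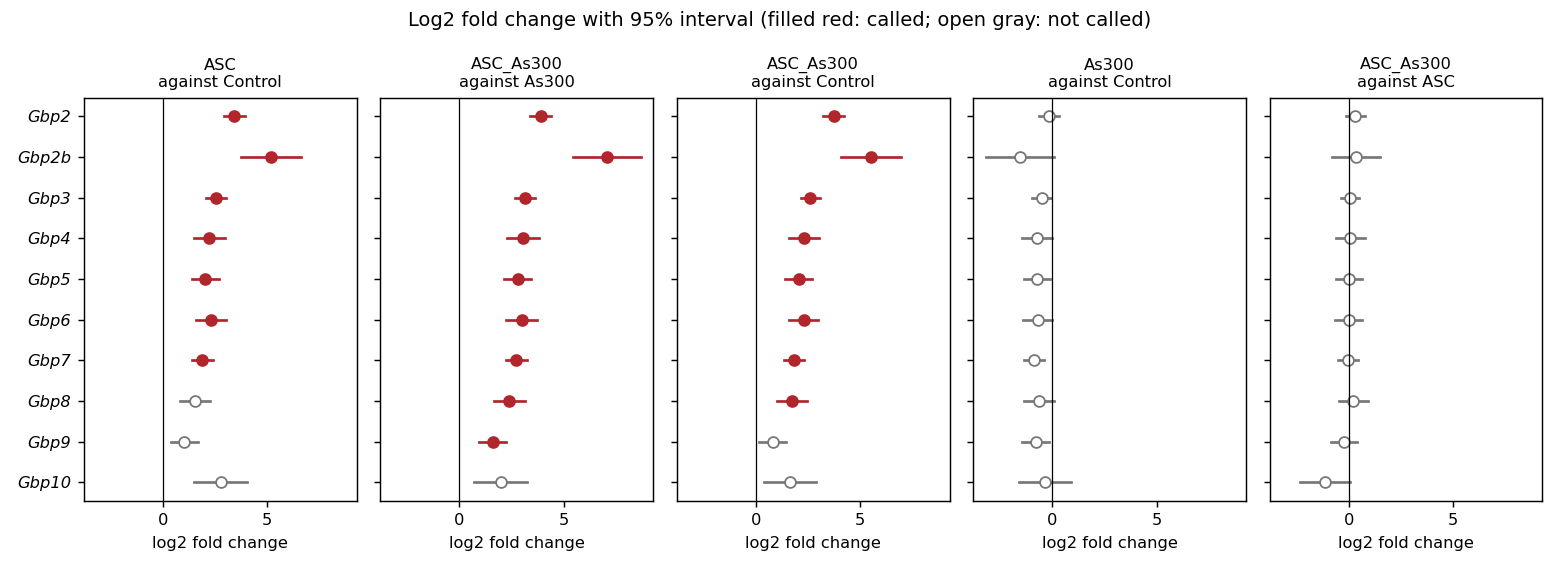
Points give the log2 fold change of each member in 5 comparisons, with 95% confidence intervals as lines, filled red where called and open gray where not. In the first 3 panels all 10 values lie above 0, in As300 against Control all 10 lie under it, and in ASC_As300 against ASC they scatter about it.

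Arsenic alone went with lower values that did not pass the test. In As300 against Control, all 10 members had a negative log2 fold change, and 9 ran from -0.88 for Gbp7 to -0.17 for Gbp2. For Gbp2b, with all As300 tumors at or under the floor of 12 counts, the fitted value depends on the prior count. With As300 set at that floor, the level was 1.48-fold under the Control mean. Control 3, at 5 counts, was under the floor as well, and the 95% interval of -3.19 to 0.08 included 0. The median of the members was -0.71, or -0.67 with As300 at the floor for Gbp2b, beside -0.03 over all genes. None was called by edgeR, beside 0.355% of all genes called lower. At an unadjusted p under 0.05 there were 6 members, beside 24.1% of all genes. DESeq2 called 2 members, Gbp7 and Gbp9, and 816 genes in all. Gbp7 came nearest in edgeR, with a log2 fold change of -0.88 ± 0.22 SE and an adjusted p of 0.0538, and it was the single member whose Control and As300 tumors did not overlap. Over all genes tested, 29.9% did not overlap in this comparison. Gbp2, by contrast, differed by -0.17 ± 0.21 (95% interval -0.63 to 0.30). Without Control 1 the median of the members was -0.30 and the sign of Gbp2 and Gbp10 turned, to 0.07 and 0.12. The log2 fold change was then -0.18 for Gbp4, -0.21 for Gbp5, -0.26 for Gbp8, -0.34 for Gbp3, -0.37 for Gbp6, -0.48 for Gbp9 and -0.75 for Gbp7. Markers of other cells moved with this comparison. The 4 neuron markers summed to 21.6 to 34.0 CPM in As300 and 1.72 to 11.1 CPM in Control. Of these, 3 of 4 were called higher by edgeR, beside 0.701% of all genes. The 4 adipocyte markers summed to 43.1 to 66.6 CPM in As300 and 124.6 to 261.7 CPM in Control. None of the adipocyte markers was called and 2 had an unadjusted p under 0.05. The part of the neuron and adipocyte markers in the Gbp values was not tested.

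Among tumors with ASC, no difference between those with and without iAs passed the test. In ASC_As300 against ASC, edgeR called none of the 10 members beside 0% of all genes called higher, none had an unadjusted p under 0.05, and DESeq2 called none. The members' log2 fold changes ran from -1.13 for Gbp10 to 0.34 for Gbp2b. For Gbp2 the difference was 0.30, with a 95% interval of -0.15 to 0.76, so a difference anywhere in that interval remains possible. Gbp10 was the single member whose ASC and ASC_As300 tumors did not overlap (log2 -1.13 ± 0.55 SE, unadjusted p = 0.0614), beside 8.07% of all genes.

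The test of whether ASC acted differently under arsenic called none of the 10 members in edgeR, beside 0% of all genes called higher, and none in DESeq2. The interaction was positive for 9 members, with Gbp10 the exception at -0.79. Gbp7 had the smallest p, with an interaction of 0.83 ± 0.31 SE on the log2 scale, an unadjusted p of 0.0201 and an adjusted p of 0.32. It was the 1 member under an unadjusted p of 0.05, beside 13.6% of all genes.

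Levels can be compared between genes only per length, here as RPKM, which is CPM per kilobase of exon. In ASC tumors Gbp2 stood at 114.1 RPKM ± 24.4 (SD, n = 3), Gbp3 at 32.2 ± 4.22 and Gbp7 at 12.2 ± 1.90. Then came Gbp6 at 6.68, Gbp4 at 5.93, Gbp9 at 5.14, Gbp5 at 5.13, Gbp2b at 4.86 and Gbp8 at 4.34 RPKM, neighbours whose tumors overlapped in level, and Gbp10 at 1.78 RPKM. In Control tumors the order began in the same way, with Gbp2 at 10.7 ± 2.80, Gbp3 at 5.51 ± 1.41 and Gbp7 at 3.29 ± 0.50 RPKM. Gbp9 followed at 2.53 RPKM, and Gbp2b came last at 0.132 RPKM.

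The makeup of the family shifted toward Gbp2 in tumors with ASC. Gbp2 made up 38.8% ± 2.3 of the summed family RPKM in Control, 47.5% ± 3.6 in As300, 59.1% ± 3.6 in ASC and 63.7% ± 2.1 in ASC_As300 (SD, n = 3). The highest tumor without ASC had 49.6% and the lowest with ASC 55.7%. Without ASC, the Gbp2 share was higher in every As300 tumor, at 43.4% to 49.6%, than in any Control tumor, at 37.1% to 41.5%. That difference was not tested. With ASC, the tumors with and without iAs overlapped in this share. The Gbp9 share was lower with ASC, at 8.91%, 7.21%, 2.72% and 2% in the same order of groups. Gbp7 made up 12.2%, 8.71%, 6.42% and 5.33%, and Gbp2b 0.451%, 0.23%, 2.42% and 2.82%.

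The shift was tested on the log2 ratio of each member to Gbp2, a test chosen after the values were seen. An exact two-sided permutation test exchanged the ASC labels within each arsenic level, with 400 arrangements and a smallest possible p of 0.005. The ratio to Gbp2 was higher with ASC for Gbp2b, by 2.43 on the log2 scale, and lower for the other 8 members, from -0.80 for Gbp3 to -2.32 for Gbp9. The size for Gbp2b depends on the prior count, because its counts without ASC are few. With a prior count of 0.5 it was 2.92. For 8 of the 9 ratios the p was 0.005, the smallest possible, and 0.005625 after adjustment over the 9 ratios. For Gbp10 it was 0.04 before and after adjustment, and 0.06 with a prior count of 0.5. Since the test compares members with Gbp2, it shows unequal change within the family and not which gene moved.

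**Figure D4:**
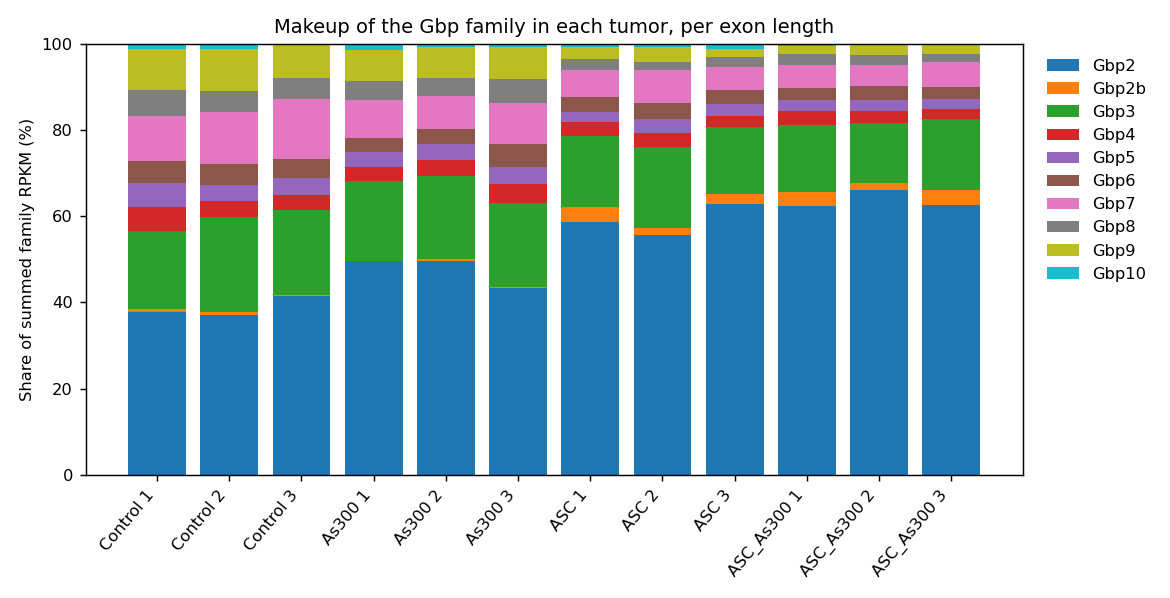
Stacked bars give the share of each member in the summed family RPKM, in percent, for each of the 12 tumors. The Gbp2 share is 37.1% to 49.6% in the 6 tumors without ASC and 55.7% to 66.1% in the 6 tumors with ASC.

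Other genes of the interferon gamma pathway were read from lists chosen by function. The immunity-related GTPases, a family of smaller GTPases that act on the same vacuoles, had 6 of 6 measured members called higher in each of the 3 comparisons above, with Igtp rising 8.35-fold in ASC against Control (adjusted p = 4.22e-05) and Iigp1 13.3-fold in ASC_As300 against As300 (adjusted p = 0.000121). The median log2 fold change of these GTPases was 3.06 in ASC against Control, beside -0.0044 over all genes. Of 11 genes of interferon gamma signalling, 4 were called higher in ASC against Control, 5 in ASC_As300 against Control and 3 in ASC_As300 against As300. Their medians were 0.58, 0.74 and 0.80 on the log2 scale. Over all genes, 0.706%, 0.783% and 0.793% were called higher in these 3 comparisons. Irf1 is a transcription factor induced by interferon gamma. It rose 2.81-fold in ASC against Control and 3.15-fold in ASC_As300 against As300 (adjusted p = 0.000167 and 4.66e-05). The receptor chains Ifngr1 and Ifngr2 differed by 0.04 and 0.13 on the log2 scale in ASC against Control and were not called.

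Ifng, which encodes interferon gamma itself, had few counts. They were 5, 12 and 4 in Control, 12, 0 and 23 in As300, 114, 64 and 96 in ASC and 100, 112 and 178 in ASC_As300, so the tumors with and without ASC did not overlap. The Control tumors lay at or under the floor of 12 counts per library, so the level was at least 8.48-fold higher in ASC and at least 10.3-fold higher in ASC_As300 than in Control. In the main edgeR fit the adjusted p was 0.0563 in ASC against Control and 0.0813 in ASC_As300 against As300. The same fit called Ifng in ASC_As300 against Control (adjusted p = 0.0347).

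Among 17 genes stimulated by type I interferon, 9 were called higher in ASC against Control, 3 in ASC_As300 against Control and 5 in ASC_As300 against As300. Over all genes the shares were 0.706%, 0.783% and 0.793%. The medians of the 17 were 1.29, 0.90 and 1.00 on the log2 scale. Oas3, an antiviral sensor of double-stranded RNA, rose 3.27-fold in ASC against Control (adjusted p = 0.012), and Oasl2 2.92-fold (adjusted p = 0.00221). Of 8 inflammasome genes that act with GBPs, none was called by edgeR in ASC against Control. There 4 of the 8 had an unadjusted p under 0.05, beside 15.4% of all genes. In ASC_As300 against As300, 1 of the 8 was called, beside 0.793% of all genes called higher. It was the protease gene Casp1, which rose 2.25-fold (adjusted p = 0.034). Prenyl transferases attach the lipid tail of Gbp2, Gbp2b and Gbp5. None of 5 prenyl transfer and CaaX processing genes was called, with a median of -0.01 in ASC against Control. None of 3 atlastins, GTPases related to GBPs that shape the endoplasmic reticulum, was called in these comparisons. The remaining annotated Gbp symbols were Gbp11, with 0 to 40 counts per tumor, and Gbp2-ps, with 0 in every tumor.

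The 5 genes outside the family whose profile over the 12 tumors lay nearest to the family mean, by root mean square difference of centred log2 CPM, were Irgm2 (0.258), Serpina3g (0.268), Igtp (0.299), Nlrc5 (0.302) and Ifi47 (0.326). The family mean rises with ASC, so genes with such a rise were bound to be near it. Irgm2 was at 12.2 to 19.1 CPM in Control, 7.46 to 14.1 in As300, 87.3 to 98.1 in ASC and 72 to 95.3 in ASC_As300. In As300 against Control none of the 5 genes was called by edgeR, and for each the tumors of both groups overlapped. Of the 5, 2 had an unadjusted p under 0.05 (Irgm2 and Nlrc5), beside 24.1% of all genes.

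Markers of immune cells moved with the ASC groups in part. The 7 T cell markers summed to 66.7, 13.4 and 11.6 CPM in Control and 10.4 to 15.0 CPM in As300. They summed to 45.8 to 61.7 CPM in ASC and 36.7 to 62.1 CPM in ASC_As300. None of the 7 was at 0 in a whole group or called by edgeR. In ASC_As300 against As300, 6 of the 7 had an unadjusted p under 0.05, beside 9.98% of all genes. The sum in Control 1, at 66.7 CPM, was above that of every tumor with ASC. This did not hold for every marker. The raw Cd4 count was 731 in Control 1 and 133 to 371 in tumors with ASC. For Cd8a it was 763 in Control 1 and 405 to 1052 in tumors with ASC. The summed Gbp level of Control 1 was 144.8 CPM, under the lowest ASC tumor at 532.8 CPM. The 7 macrophage markers summed to 778 to 1070 CPM in Control, 1113 to 1125 CPM in As300, 1182 to 1641 CPM in ASC and 1236 to 1469 CPM in ASC_As300. In ASC against Control 3 of 7, C1qa, C1qb and C1qc, were called higher, by 1.75-fold to 1.78-fold, beside 0.706% of all genes. Mrc1 differed there by -0.13 on the log2 scale. None of the 7 was called by edgeR in ASC_As300 against As300, where 3 had an unadjusted p under 0.05, beside 9.98% of all genes. The 4 NK cell markers summed to 1.93 to 4.26 CPM in Control and 1.33 to 3.27 CPM in As300. They summed to 3.85 to 4.80 CPM in ASC and 4.39 to 6.02 CPM in ASC_As300. Of the 4, 2 were higher in ASC against Control and 4 in ASC_As300 against As300. The medians were 0.05 and 0.79 on the log2 scale, and edgeR called none. The 4 epithelial markers summed to 64.2 to 360.2 CPM in tumors without ASC and 25.5 to 46.9 CPM in tumors with it. Most of the sum was Krt8, whereas Cdh1 counts overlapped, at 40 to 109 without ASC and 39 to 127 with it. In edgeR, 1 of the 4 was called lower in ASC_As300 against Control, beside 0.024% of all genes. None was called in ASC against Control or in ASC_As300 against As300. The part of these cell types in the Gbp differences was not tested.

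**Figure D5:**
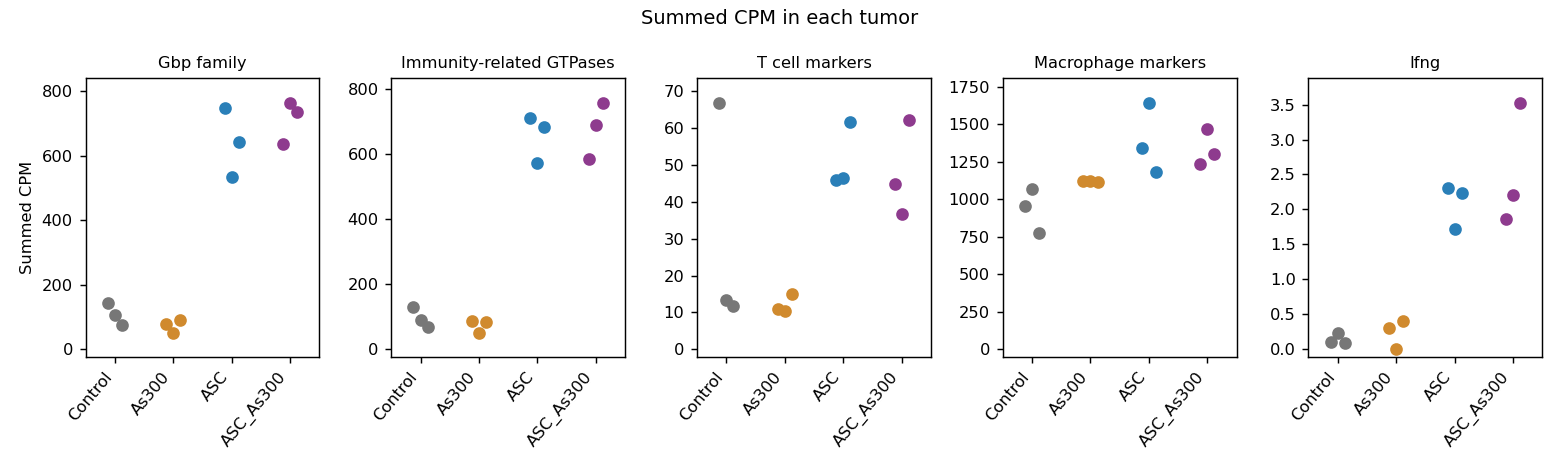
Points give CPM in each of the 12 tumors, by group, for the 10 Gbp members summed, 6 immunity-related GTPases summed, 7 T cell markers summed, 7 macrophage markers summed, and Ifng alone, each panel on its own linear axis from 0. The Gbp and immunity-related GTPase panels separate tumors with ASC from tumors without it, whereas in the T cell panel Control 1 lies at 66.7 CPM, above every tumor with ASC.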

How the data were processed

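Tumor RNA was sequenced as stranded poly(A) libraries. According to the submitters' processing notes and the methods, the authors used Cutadapt 1.1.0 for trimming, HISAT2 2.0 for alignment and StringTie 1.3.4 for assembly and quantification. They deposited 1 table of raw counts per gene. The genome build, the annotation and the step that made whole counts are not given in the sources used here. Low counts cluster at multiples of 4 (1137 to 1298 genes per tumor at 4 counts, 380 to 414 at 5), so a count may not be 1 read, and a floor of 12 counts was used in place of 3.

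Groups came from the sample titles, and by the protocol each sample is the combined tumors of 1 mouse. Genes were filtered with filterByExpr, scaled by TMM and tested with edgeR 4.0.16 (quasi-likelihood F test, R 4.3.3) over all 12 tumors with 1 mean per group and Benjamini-Hochberg adjustment over 20818 genes. TMM factors were 0.953 to 1.05. A call needed an adjusted p under 0.05 and a 1.5-fold change. With 3 tumors against 3, an exact permutation test cannot go under p = 0.1. Log2 CPM used a prior count of 2. RPKM used union exon lengths of GENCODE M21. Coding sequences were aligned with MAFFT 7.526. On data simulated for ASC against Control with 20818 genes, the fit recovered 46.4% of 97 genes changed by 1 on the log2 scale and 60.2% of 98 changed by 2, with 6 false calls.

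The members and lists were chosen with earlier results of these data known. The text names all members, from each list up to 4 called genes with the smallest p and the defining genes, and the 5 non-members nearest to the family profile. Further marker genes, and tumors singled out, were named after their values were seen. Alternatives were DESeq2 1.42.0, other size factors and filters, the 6 compared tumors alone, a replicate block, counts divided by 4, no fold minimum, another prior count and leaving out each tumor. Summing Gbp4, Gbp8 and Gbp9, and the ratios to Gbp2, were chosen after seeing the data. Protein sequences were not analysed here. A gene of the lists is counted but not reported here by itself.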

Additional observations from a re-analysis of the deposited data

How the results depend on the processing

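The number of members called in the 3 comparisons of tumors with and without ASC stayed within 1.5 times of its value under each alternative run, at 6 to 10 members for ASC against Control, 7 to 9 for ASC_As300 against Control and 8 to 10 for ASC_As300 against As300. The filter of 10 counts in every tumor tested 8 members. Leaving out each tumor in turn gave 7 to 9, 7 to 8 and 8 to 10 members. For As300 against Control, none was called by edgeR, 2 by DESeq2, and 1 with at least 10 counts in every tumor or counts divided by 4. Leaving out a tumor gave 0 to 1 there, with Gbp7 called without ASC 1 or ASC 3. For ASC_As300 against ASC and for the interaction, 0 members were called under each alternative.

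Over 1117 refits of a member's fold change, 1069 kept direction and call, 12 lost the call, 21 gained it and 15 changed sign. The cause was not tested. Leaving out 1 tumor gave log2 fold changes in As300 against Control of -0.297 to 0.0715 for Gbp2 and -0.798 to 0.118 for Gbp10. In ASC_As300 against ASC it gave -0.0229 to 0.168 for Gbp3, -0.013 to 0.257 for Gbp4, -0.0646 to 0.0732 for Gbp5, -0.134 to 0.0829 for Gbp6 and -0.142 to 0.0697 for Gbp7. Gbp6 was 0.00461 there with the replicate block.

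Counts over all genes moved more. In ASC against Control, 150 genes were called, 450 by DESeq2, 89 with the 6 tumors alone and 105 to 355 without 1 tumor, the highest without ASC 1. In As300 against Control, 220 were called, 816 by DESeq2, 8 with no filter, 454 with at least 10 counts in every tumor, 460 with counts divided by 4, 593 with no fold minimum and 0 to 399 without 1 tumor. In ASC_As300 against Control, 168 were called, 390 by DESeq2 and 90 to 203 without 1 tumor. In ASC_As300 against As300, 178 were called, 399 by DESeq2 and 95 to 277 without 1 tumor. In ASC_As300 against ASC, 0 were called, 11 by DESeq2, 1 with the 6 tumors alone and 0 to 1 without 1 tumor. For the interaction, 0 were called, 174 by DESeq2 and 0 to 1 without 1 tumor.

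Outside the family, Nlrc5 and Serpina3g lost their calls in ASC against Control with the 6 tumors alone, Serpina3g also without Control 2. Casp1 lost its call in ASC_As300 against As300 in 10 alternatives, the replicate block among them. In ASC against Control, edgeR called Ifng with counts divided by 4 (adjusted p = 0.0108), and with the 6 tumors alone (0.0218). It also did so without As300 2 (0.00162). In ASC_As300 against As300, Ifng was called by DESeq2 (4.29e-05), with counts divided by 4 (0.0173) and without As300 2 (0.0316). Ifng stayed uncalled in 14 of 17 and 15 of 18 alternatives. DESeq2 also called Casp1 in the first comparison, and Socs1 and Gbp11 in the second. Same-numbered tumors showed little shared deviation (18 pairs, median correlation 0.0274, from -0.124 to 0.172). For the 36 pairs with other numbers the median was -0.0143. No pairing by number was seen, though a weak one could be missed by this check. With the replicate block, 7, 8 and 9 members were called in the 3 comparisons, as without it. Depth limits Gbp2b and Ifng, whose counts without ASC are few.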
